A study of Mus musculus with 20 samples.

Results

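Among the open chromatin regions of mouse embryonic stem (ES) cells, 2362 lay more than 1000 bp from every annotated transcript start and had their centre inside protein-coding sequence. They were taken from a list of 102373 ATAC-seq peaks, regions where a transposase inserts sequencing adapters into accessible DNA. A peak was kept when it lay more than 1000 bp from every transcription start site (TSS) of the GENCODE annotation and when its centre base fell in an annotated coding interval. Of the 76716 peaks that met the first condition (distal peaks), the coding-exon peaks made up 3.08%, beside 36825 centred in introns, 3034 in untranslated or non-coding exons and 34495 between genes. Coordinates are given in the mouse build GRCm38 (mm10), counted from 1.

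The cells were of the line ZHBTc4, in which doxycycline (dox) silences the endogenous Pou5f1 gene that encodes OCT4. They carried a lentiviral OCT4 under the PGK promoter, fused to a SNAP tag and either to a mitotic degron of Cyclin B1 (SNAP-MD-OCT4) or to a mutated degron (SNAP-MD*-OCT4), and all cells also carried the reporter YPet-MD. The study asked what loss of OCT4 at the passage from mitosis to G1 does to accessibility, and it measured cells of both constructs, grown in serum with LIF and 2 kinase inhibitors. After 40 h with dox at 1 µg/ml they were sorted by DNA content and YPet-MD into 4 phases, named Late S/G2, S, Late G1 and Early G1. Untreated, unsorted cells of both constructs completed the 10 groups, each with 2 replicates. Both lines were transduced populations sorted for similar SNAP and YPet levels. The list merges the peaks of the 16 dox-treated libraries and gives only a chromosome, a start and an end, so it holds no value with which constructs, phases or replicates could be compared, and the sequencing depth behind it is unknown. The intervals and p-values below treat peaks, bases or genes as the units and cover counting error only.

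Coding exons are under selection for the protein they encode, and in vertebrates they are richer in GC than introns. Some also serve as binding sites of transcription factors or as enhancers of their own or of a neighbouring gene. CTCF, a zinc finger protein that shapes chromatin loops, binds a long motif that can lie in coding sequence, whereas OCT4 and SOX2 bind a composite motif that is frequent in ES cell enhancers.

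The following sequences were read from the RefSeq copy of GRCm38.p6. The first set shows the 6 members in which an exact match to the CTCF consensus lay nearest to the centre of the peak, because CTCF matches were denser in coding sequence inside than outside peaks. The match is in capitals, with 15 bases on each side, on the strand of the motif.
Trmu, plus strand, chr15:85896473-85896516: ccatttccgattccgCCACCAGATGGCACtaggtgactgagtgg
Trim56, plus strand, chr5:137114324-137114367: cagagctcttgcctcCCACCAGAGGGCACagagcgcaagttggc
Utrn, plus strand, chr10:12690803-12690846: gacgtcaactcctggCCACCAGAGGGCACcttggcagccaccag
Cldn12, plus strand, chr5:5508005-5508048: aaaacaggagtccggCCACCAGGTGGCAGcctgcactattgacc
Kcnj9, plus strand, chr1:172326301-172326344: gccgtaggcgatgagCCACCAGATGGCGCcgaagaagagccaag
Mroh6, minus strand, chr15:75884280-75884323: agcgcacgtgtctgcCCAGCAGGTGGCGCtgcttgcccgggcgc

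The centre of each of these 6 matches lay in coding sequence, between 11 bp before and 11 bp after the centre of its peak. Trmu encodes an enzyme that modifies mitochondrial tRNA, Trim56 a ubiquitin ligase, Utrn the dystrophin relative utrophin, Cldn12 a claudin of cell junctions and Kcnj9 a potassium channel subunit. The Trim56 and Cldn12 peaks, of 310 and 648 bp, consisted of coding bases alone. In Trmu and Mroh6 the motif ran on the strand of the gene, and in the other 4 it ran on the opposite strand.

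The second set shows the composite OCT4::SOX2 motif. No member held a match with fewer than 2 mismatches, and 7 held a match with 2, of which the 6 in the widest peaks are given with 7 bases on each side.
Hist1h2be, minus strand, chr13:23586016-23586044: agacttaATTTGCATAAGACTGcctacaa
Rfx4, minus strand, chr10:84863598-84863626: aagggtcCTTTGCATGACATTGtgtgctg
Slc25a21, minus strand, chr12:56717887-56717915: gctgagtATTTGCCTGAGAATGctcaaat
Farp1, minus strand, chr14:121219393-121219421: acttcgaATCTGCTTCACAATGggcttca
Ercc4, plus strand, chr16:13148280-13148308: attgatcATTTGCATAGCAATTcattctt
4930467E23Rik, plus strand, chr8:19752103-19752131: gttgcatATTTGCATTCTAATGgctccct

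In this set only the Farp1 match lay in coding sequence, in a 43-bp coding exon. The match of Ercc4, which encodes a subunit of a DNA repair nuclease, lay in an untranslated or non-coding exon, and the matches in the peaks of Hist1h2be (a histone H2B gene), Rfx4 (a transcription factor of the developing brain), Slc25a21 (a mitochondrial carrier) and 4930467E23Rik lay in annotated introns. The Hist1h2be match (chr13:23586023-23586037) lay upstream of the only coding exon of that gene (chr13:23585579-23585956, minus strand). Its 1360-bp peak spanned this exon and lay 3500 bp from the nearest annotated TSS. Whether the match belongs to a promoter of the gene was not tested. 4930467E23Rik belongs to a group of near-identical genes, so the place of its peak is uncertain.

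The next sequence shows CpG-rich coding sequence. It is the narrowest wholly coding peak of Zfhx3, a gene with 6 members, on the strand of the gene. The CG dinucleotides are in capitals and numbered 13 in 177 bases.
Zfhx3, plus strand, chr8:108956864-108957040: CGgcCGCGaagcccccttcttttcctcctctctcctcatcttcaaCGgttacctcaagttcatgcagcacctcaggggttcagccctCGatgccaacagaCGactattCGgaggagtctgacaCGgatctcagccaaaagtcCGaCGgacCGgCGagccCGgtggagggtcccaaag

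The last sequence is a peak whose edges lay close to the splice sites of an exon. Read on the strand of the gene, the 234-bp peak of Mycbp2 began 9 bp before and ended 20 bp after coding exon 15 of 85, and the 205 coding bases are in capitals.
Mycbp2, minus strand, chr14:103282578-103282811: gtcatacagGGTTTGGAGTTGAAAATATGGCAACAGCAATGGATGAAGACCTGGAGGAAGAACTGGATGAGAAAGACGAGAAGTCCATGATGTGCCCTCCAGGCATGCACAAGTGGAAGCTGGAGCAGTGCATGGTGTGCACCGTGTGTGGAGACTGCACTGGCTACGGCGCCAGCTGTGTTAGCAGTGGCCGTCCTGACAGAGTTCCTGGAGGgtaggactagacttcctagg

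To ask how densely distal coding sequence was covered, peak centres were counted per Mb of each kind of sequence more than 1000 bp from any TSS. Coding sequence held 94.0 centres per Mb (2362 centres in 25.1 Mb), more than untranslated and non-coding exons with 51.3, introns with 36.3 and intergenic sequence with 24.8. The density in coding sequence was 2.59 times that in introns (95% interval 2.48 to 2.70, exact conditional binomial test), 1.83 times that in non-coding exon sequence (1.74 to 1.93, p = 5.87e-104) and 3.78 times that in intergenic sequence (3.63 to 3.94). Of the distal coding bases, 4.91% lay inside a listed peak. The coding bases inside peaks were 59.6% GC, against 50.3% outside.

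The excess over introns was not the same at every base composition. When each base was assigned the GC content of the sequence within 250 bp of it, coding sequence exceeded introns in AT-rich surroundings, with 34.8 against 12.0 centres per Mb at 35 to 40% GC (ratio 2.90, 2.38 to 3.51). Between 50 and 55% GC it fell below introns, with 82.4 against 105 (ratio 0.785, 0.711 to 0.865), and between 65 and 70% it again exceeded them, with 836 against 345 (ratio 2.42, 1.92 to 3.06). Combined over the 5% steps of GC content, the ratio of coding sequence to introns was 1.04 (0.993 to 1.09) and no longer passed the threshold (Mantel-Haenszel chi-square test, p = 0.0992). This stratified comparison was chosen after the data had been seen. It was made against introns only, so the ratios against non-coding exon and intergenic sequence are not adjusted for GC content.

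**Figure D1:**
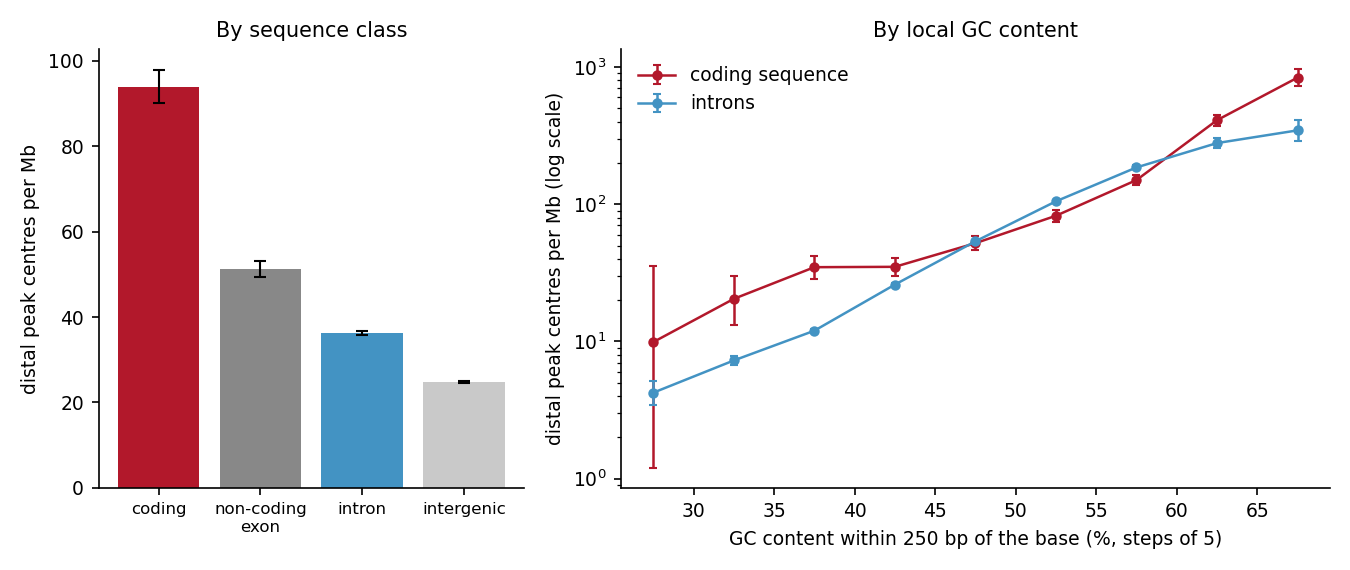
Left, distal peak centres per Mb of coding, non-coding exon, intron and intergenic sequence, with exact 95% Poisson intervals; right, the same density in coding sequence and introns by the GC content within 250 bp (logarithmic axis). Coding sequence stands highest on the left at 94.0 per Mb, whereas on the right its curve lies above introns at low and high GC content and below them between 45 and 60%, where at 45 to 50% the interval of the ratio (0.856 to 1.09) includes 1.

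The members were wider, richer in GC and richer in CpG than distal peaks in introns. Their median width was 393 bp (95% interval 377 to 411), against 340 bp (336 to 343) in introns and 335 bp (325 to 350) in non-coding exons. Of the members, 56.1% were wider than the pooled median of 342 bp, against 49.5% of intronic peaks (Fisher's exact test, odds ratio 1.30, 1.20 to 1.42, p = 7.16e-10). The narrowest member spanned 135 bp and the widest 2485 bp, and 904 members, 38.3%, were under 300 bp.

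The median GC content was 57.0% (56.7 to 57.3) in members, 48.6% (48.5 to 48.7) in intronic peaks and 49.3% (49.0 to 49.6) in non-coding exon peaks. Members exceeded the pooled median more often than intronic peaks, with an odds ratio of 4.71 (4.24 to 5.23, Fisher's exact test, p = 1.07e-231). CpG content was measured as the number of CG dinucleotides over the number that the C and G content predicts. This ratio had a median of 0.450 (0.438 to 0.463) in members, 0.211 (0.209 to 0.213) in intronic peaks and 0.240 (0.232 to 0.247) in non-coding exon peaks. The odds ratio of exceeding the pooled median was 7.11 against intronic peaks (6.31 to 8.02) and 5.20 against non-coding exon peaks (4.63 to 5.85, Fisher's exact test, p = 1.08e-181).

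Together, a CpG ratio above 0.6 and a GC content above 50% are often used to describe CpG islands, the CpG-dense stretches that mark many promoters. By these limits 646 members, 27.3% (25.6 to 29.2), were island-like, against 1.56% (1.44 to 1.70) of intronic and 3.53% (2.93 to 4.24) of non-coding exon peaks. The CpG content of coding sequence outside peaks was not measured. These contrasts therefore do not separate open from closed coding sequence. Repeat sequence was less common in members. A base that the genome marks as repetitive or of low complexity occurred in 58.2% of members, 77.9% of intronic peaks (odds ratio 0.395, 0.362 to 0.430, Fisher's exact test, p = 1.37e-94) and 74.4% of non-coding exon peaks (odds ratio 0.479, 0.427 to 0.537, p = 3.20e-36). Distal coding sequence as a whole holds few such bases, with 23.9 of 25.1 Mb unmarked, against 706 of 1015 Mb of introns. The rule selects for coding sequence, so the lower share cannot be read as a trait of open coding exons.

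Width and base composition went together among the members. Those under 300 bp had a median GC content of 55.2% and 19.7% of them were island-like. Among the 195 members of at least 1000 bp the median was 62.6%, and 69.2% were island-like. Intronic peaks changed little over the same classes, from 47.8% to 49.5% GC.

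**Figure D2:**
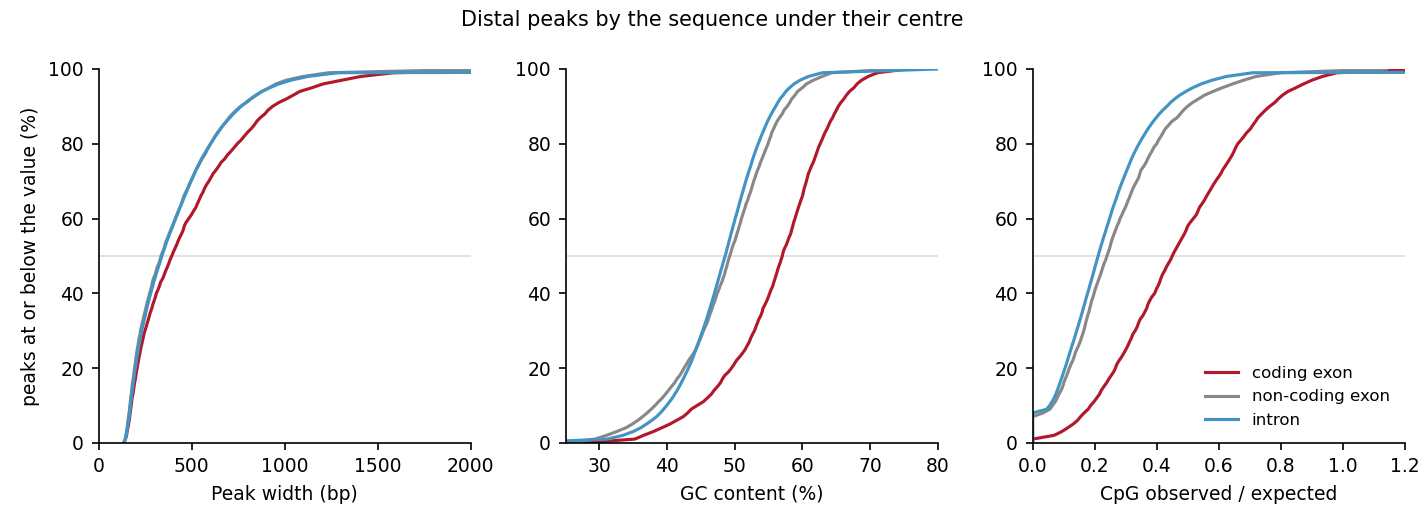
Cumulative distributions of peak width (bp), GC content (%) and CpG observed over expected for distal peaks centred in coding exons, non-coding exons and introns; the grey line marks the median. Over the middle of each distribution the coding curve lies to the right of both others, with medians of 393 bp, 57.0% and 0.450.

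Most peaks reached beyond the exon under their centre. Only 596 members, 25.2%, lay wholly inside a coding exon, and in the median member 68.3% of the bases were coding. In the transcript used to describe each member, 2195 overlapped 1 coding exon, 141 overlapped 2 and 26 overlapped 3 or more, up to 5. Both edges lay within 20 bp of the edges of a coding interval in 30 members, 1.27%, and in 19 of these the interval was bounded by splice sites on both sides.

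The widest 8 of these 30 were at Slc39a3, Wnt5a, Vrtn, Epb41l3, Tnrc6c, Herpud1, Tgm6 and Cyp26c1. The Wnt5a peak (chr14:28522485-28522940) spanned 456 bp, as did the annotated coding interval of the last coding exon of this signalling protein, and both its edges lay 3 bp downstream of those of the interval. The Tgm6 peak, in a transglutaminase gene, spanned 328 bp of a 342-bp exon. The Cyp26c1 peak, in a gene for an enzyme that degrades retinoic acid, spanned 311 bp over a 318-bp exon. The intervals at Vrtn and Herpud1 came from transcripts annotated as incomplete.

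Along the gene, members were densest in the last coding exon. Counted in the principal transcript of each gene, which held 2287 of the 2362 centres, the density was 165 per Mb in last coding exons, 112 in first, 108 in coding sequences made of a single exon and 73.7 in internal exons. Last coding exons exceeded internal ones 2.24-fold (2.05 to 2.46, exact conditional binomial test, p = 1.40e-62). In comparisons chosen after the data had been seen, the excess was 1.44-fold (1.32 to 1.59, Mantel-Haenszel chi-square test, p = 9.24e-15) within steps of local GC content and 1.74-fold (1.57 to 1.92, p = 4.99e-28) within classes of exon length. First coding exons exceeded internal ones 1.53-fold (1.25 to 1.85, exact conditional binomial test, p = 5.35e-05). Within GC steps the direction turned (0.826-fold, 0.679 to 1.00, chi-square p = 0.0540), and within length classes the difference did not pass (1.16-fold, 0.951 to 1.42, chi-square p = 0.142).

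Members also became denser with the length of the coding interval, up to 1000 bp. They numbered 59.4 per Mb in intervals of at most 100 bp, 62.2 above 100 and up to 200 bp, 127 up to 500 bp, 164 up to 1000 bp and 121 in longer ones. The centres in last exons belonged to longer and GC-richer sequence than those in internal exons, with median exon lengths of 580 and 193 bp and median peak GC contents of 58.8% and 55.5%.

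The median distance of a member to the nearest TSS was 5222 bp, with quartiles of 2451 and 11271 bp. Density was 110 per Mb between 2 and 5 kb from a TSS, 102 between 5 and 10 kb, 84.7 between 10 and 50 kb and 41.3 (29.7 to 56.1) beyond 50 kb. It was 85.2 between 1 and 2 kb, where a peak also had to keep its nearer edge outside the 1000 bp limit. At the limit, the nearest members lay 1002 bp (Cep95, 51.5% GC) and 1004 bp (Pi4k2a, 47.5%) from a TSS, and the nearest coding-exon peaks left out lay at 1000 bp (Bcl2l2, 62.3%, and Mib2, 62.1%). The 3273 coding-exon peaks within the limit had a median width of 950 bp.

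**Figure D3:**
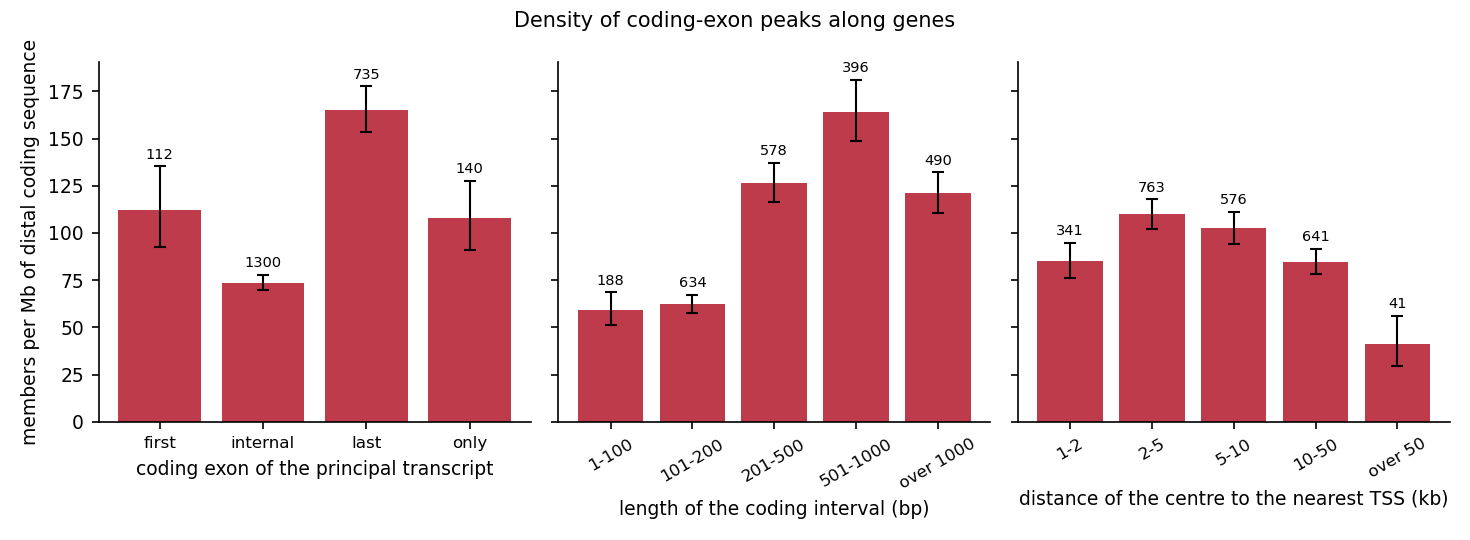
Members per Mb of distal coding sequence by place of the coding exon in the principal transcript, by length of the coding interval (bp) and by distance of the peak centre to the nearest TSS (kb); error bars are exact 95% Poisson intervals and the numbers above them count members. Last coding exons (165 per Mb) and intervals above 500 and up to 1000 bp (164 per Mb) stand highest.

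Density differed between chromosomes. On the autosomes it ranged from 69.5 per Mb on chromosome 14 to 124 on chromosome 18, and on the X chromosome it was 23.7 per Mb (15.2 to 35.3), with 24 members. The X chromosome held few distal peaks of any kind, 1153, and members made up 2.08% of them, within the range of 2.03% to 5.20% over the autosomes.

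The members lay in 2025 genes. A single member was found in 1737 of them, 2 in 253 and 3 or more in 35. Mycbp2, a ubiquitin ligase of axon growth with 85 coding exons, held 7 members in 7 exons, all narrow, from 203 to 265 bp. Zfhx3, a transcription factor with zinc fingers and homeodomains, held 6 in 3 of its 9 coding exons, from 177 to 1012 bp, of which 5 were wholly coding. Sptbn4, a spectrin of the axon initial segment, held 5, of which that at chr7:27408256-27409255 spanned 1000 bp at 69.6% GC.

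Each of the next 5 genes held 4 members. These were Plec (plectin, which links cytoskeletal filaments), Ryr1 (the calcium release channel of skeletal muscle), Tiam1 (an activator of the GTPase Rac), Ston2 (an endocytic adaptor) and Dop1b (a protein of endosome traffic). Tchh, the hair follicle protein trichohyalin, and Dlgap3, a scaffold of the postsynapse, were taken from 27 genes with 3 members each for the greatest summed width of their peaks. Of these 10 genes, 9 also had a listed peak within 1000 bp of their own TSS, and Tchh had none.

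A few exons held more than 1 member. The centre of a single member fell in 2191 coding exons, 2 centres fell in 75 and 3 in 7. The 3 peaks of Tchh covered 76.9% of its 4659-bp coding exon. The 3 in a 1839-bp exon of Ston2 covered 64.4%, at 54.3% to 56.7% GC. Exon 18 of Dop1b, of 1633 bp, held 3 peaks of 257 to 431 bp, which covered 59.3%. The exception in composition was Zfp51, a zinc finger gene, where the 3 peaks in a 2096-bp exon had a GC content of only 35.2% to 37.1%. Exons with 3 members were listed after the values had been seen.

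**Figure D4:**
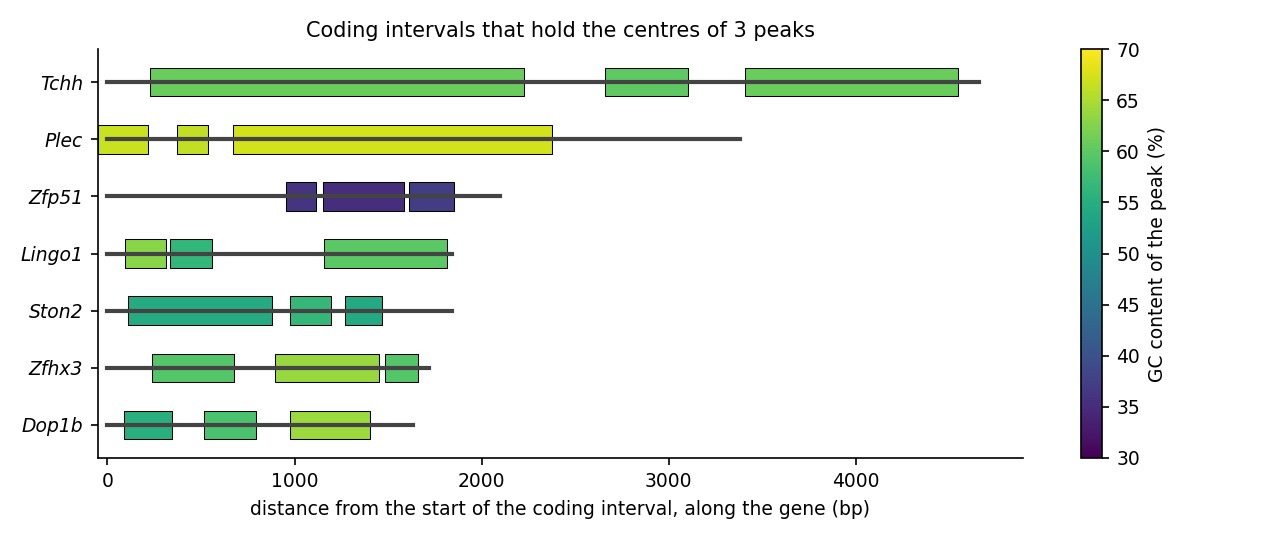
The 7 coding intervals that hold the centres of 3 peaks, each drawn as a line from its start along the gene (bp), with peaks as boxes coloured by GC content (%). The peaks of Zfp51, at 35.2% to 37.1% GC, are the only ones below 50%.

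The 5 widest members were at Cilp2 (2485 bp, chr8:69880930-69883414), Bcl11b (2155 bp, chr12:107915342-107917496), Map1s (2146 bp, chr8:70912852-70914997), Tmem151b (2108 bp, chr17:45543801-45545908) and Tchh (1996 bp, chr3:93443623-93445618). Their GC contents ran from 60.8% to 69.1%. The Cilp2 peak covered nearly the whole 2348-bp last coding exon of this cartilage matrix gene, and 96.3% of its bases were coding. The Bcl11b peak lay over the last coding exon of a transcription factor of T cells and neurons, 85918 bp from the nearest TSS.

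Among genes of the pluripotency network, a few held members. Of 21 listed genes with distal coding sequence 5 held a member, 23.8% (10.6 to 45.1), against 10.5% of all 19214 protein-coding genes with distal coding sequence. Klf5 held 2, of 344 and 186 bp. The others were Nanog, with a 752-bp peak over its last coding exon (chr6:122712830-122713581, 54.7% coding), Prdm14 (465 bp), Klf2 (214 bp) and Tbx3 (155 bp), all transcription regulators of ES cells. Pou5f1 had no coding sequence beyond 1000 bp of a TSS, and Ccnb1, the source of the degron, had 399 bp of it and no member. A listed peak lay within 1000 bp of a TSS of the gene in 95.2% of the pluripotency genes (all but Nanog), in 100% of the lineage genes and in 75.5% of all protein-coding genes with distal coding sequence.

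Of 24 lineage genes, 3 held a member, 12.5% (4.34 to 31.0), near the 10.5% over all protein-coding genes with distal coding sequence. Gata4, a regulator of endoderm and heart, had a 462-bp wholly coding peak at 74.2% GC in its first coding exon, Nkx2-5, a heart regulator, one of 1475 bp, and Tfap2a, which encodes AP-2 alpha, one of 736 bp. Among 47 chromatin regulators 12 held a member, 25.5% (15.3 to 39.5), a share above the 10.5% over all protein-coding genes with distal coding sequence. Per Mb of distal coding sequence, however, their 17 members numbered 92.3 (53.8 to 148), close to the 93.6 (89.8 to 97.4) over all protein-coding genes. Kmt2d, Setdb1, Crebbp, Trrap and Arid1a held 2 each. In Kmt2d, a histone methyltransferase, both had their centre in the same 1141-bp exon. In Arid1a, a subunit of the BAF remodeler, a 208-bp peak lay inside an 892-bp exon. A 167-bp peak lay over the start of the same exon, read along the gene.

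Gene families differed in the density of their members, beside 93.6 per Mb over all protein-coding genes. Homeobox genes outside the Hox clusters held 25 members in 21 of 81 genes, 490 per Mb of distal coding sequence (317 to 724). Hox genes held 6 in 31 genes (544 per Mb, 200 to 1184), T-box genes 6 in 16 (328, 120 to 713) and genes with symbols of C2H2 zinc finger families 141 in 506 (171, 144 to 202). Clustered protocadherin genes, which encode neuronal adhesion proteins, held 18 in 56 genes (206 per Mb, 122 to 325). The intervals of Sox genes (4 members, 268 per Mb, 72.9 to 685) and Fox genes (7 members, 182 per Mb, 73.3 to 376) included the value over all genes. At the other end, 444 olfactory and vomeronasal receptor genes with 0.407 Mb of such sequence held 3 members (7.38 per Mb, 1.52 to 21.6), and only 4.28% of them had a promoter peak. Collagen genes held 4 members in 44 genes (23.0 per Mb, 6.26 to 58.8). These lists were chosen with results of the data known and were not tested, and the densities were not adjusted for GC content. Of the 805 members at 60% GC or more, 21 lay in homeobox genes including Hox, against 1 of the 385 between 40 and 50%. In surroundings of 60% GC or more, all genes outside the C2H2 list held 525 members per Mb.

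Of the 112 members with a GC content under 40%, 38 lay in genes of the C2H2 zinc finger list, 33.9%, against 5.34% of the 805 members at 60% or more. In coding sequence whose surroundings were under 40% GC, C2H2 genes held 204 members per Mb (146 to 278), against 21.4 (17.2 to 26.3) in all other genes. At 60% or more the densities were 552 (396 to 749) and 525 (487 to 565). The list was built from gene symbols and includes Zfp36l1, whose zinc fingers are of another type, and whether a peak lay on zinc finger sequence was not examined. Many genes of this family are similar in sequence, and how well reads could be placed among them was not tested.

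Host genes had open promoters more often than other genes. A listed peak lay within 1000 bp of a TSS of the same gene in 87.1% (85.5 to 88.4) of 2024 protein-coding host genes, against 74.1% (73.4 to 74.8) of 17190 genes with distal coding sequence and no member. This difference had an odds ratio of 2.35 (2.06 to 2.69, Fisher's exact test, p = 5.30e-42). Members also had close neighbours more often than intronic peaks. Another listed peak lay within 10000 bp of 85.7% of members and 79.1% of intronic peaks (odds ratio 1.59, 1.41 to 1.79, Fisher's exact test, p = 6.08e-16). With only distal peaks counted as neighbours the shares were 73.0% and 70.7%, and the odds ratio fell to 1.12 (1.02 to 1.23, Fisher's exact test, p = 0.0183).

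Finally, 12 motifs were sought on both strands of each peak. They were spelled ATTTGCAT followed directly by NACAATG for OCT4::SOX2 (up to 2 mismatches), ATGCAAAT for OCT, TCAAGGTCA for ESRRB, GGGCGGGG for SP1, GCGCATG followed by CGC for NRF1, AAGATGGCG for YY1 and CACGTG for the E-box. SOX was CCATTGTC, CCATTGTT, CCTTTGTC or CCTTTGTT, AP-1 was TGACTCA or TGAGTCA, and KLF, AP-2 and CTCF (up to 1 mismatch) were consensus sequences with ambiguous letters. The OCT motif is contained in OCT4::SOX2 in reverse, and the KLF and SP1 consensus sequences can overlap in GC-rich stretches. No motif was found in 1322 members, 56.0%. The same share was not counted for other peaks, so it cannot be called particular to members.

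Motifs of OCT4 and its partner were rarer in members than in intronic peaks. OCT4::SOX2 matches occurred in 7 members, 0.296% (0.144 to 0.610), against 0.714% of intronic and 0.731% of all distal peaks. The odds ratio against intronic peaks was 0.413 (0.195 to 0.876, Fisher's exact test, adjusted p = 0.0241), but within 5% steps of the GC content of the peak it was 0.770 (0.363 to 1.63, Mantel-Haenszel chi-square test, adjusted p = 0.531). The OCT motif was found in 16 members, 0.677% (0.417 to 1.10), against 2.33% of intronic and 2.52% of all distal peaks. Its odds ratio stayed below 1 within GC steps, at 0.469 (0.285 to 0.772, adjusted p = 0.00382), after 0.286 (0.174 to 0.469, Fisher's exact test, adjusted p = 4.96e-09) without them. For the stratified values here and in the following, the test was again the Mantel-Haenszel chi-square test. SOX matches, in 8.89% of members and 12.6% of intronic peaks, lost the call within GC steps (odds ratio 0.890, 0.763 to 1.04, chi-square test, adjusted p = 0.231), as did ESRRB matches (odds ratio 0.940, 0.682 to 1.30, adjusted p = 0.713).

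For GC-rich motifs the direction depended on base composition. SP1, a factor of GC-rich promoters, had matches in 9.27% of members and 5.03% of intronic peaks (odds ratio 1.93, 1.67 to 2.23, Fisher's exact test, adjusted p = 3.19e-15), yet within GC steps the odds ratio was 0.739 (0.626 to 0.873, adjusted p = 0.00123). KLF, a motif of the Klf factors that sustain ES cells, had 7.37% and 6.91%, with an odds ratio of 1.07 (0.913 to 1.26, Fisher's exact test, adjusted p = 0.440) and 0.754 (0.633 to 0.898, chi-square test, adjusted p = 0.00382) within GC steps. The E-box CACGTG, bound by MYC and USF proteins, was the only one of the 12 motifs that passed as more frequent in members with and without GC steps, in 12.2% against 7.48% (odds ratio 1.73, 1.52 to 1.96, Fisher's exact test, adjusted p = 3.06e-14), and 1.29 (1.12 to 1.50, adjusted p = 0.00247) within GC steps. This motif holds a CG, and steps of GC content do not adjust for CpG content, which was higher in members (median ratios 0.450 and 0.211). AP-1 matches were less frequent in members in both comparisons, with odds ratios of 0.599 (0.505 to 0.710, Fisher's exact test, adjusted p = 1.35e-09) and, within GC steps, 0.718 (0.601 to 0.858, adjusted p = 0.00123). YY1 matches occurred in only 8 members, with odds ratios of 0.518 (0.256 to 1.05, Fisher's exact test, adjusted p = 0.0813) and, within GC steps, 0.178 (0.0912 to 0.347, adjusted p = 2.36e-09).

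CTCF matches occurred in 277 members, 11.7% (10.5 to 13.1), against 13.2% of intronic and 13.6% of all distal peaks, and 65 members held an exact match. The odds ratio against intronic peaks was 0.873 (0.767 to 0.993, Fisher's exact test, adjusted p = 0.0570) and 1.08 (0.938 to 1.24, adjusted p = 0.391) within GC steps. The lower share in members passed the threshold in the central 200 bp of each peak (odds ratio 0.645, 0.544 to 0.766, Fisher's exact test, adjusted p = 9.72e-07) and for exact matches alone (0.720, 0.560 to 0.927, Fisher's exact test, adjusted p = 0.0195). Members with a match were wider than those without, with medians of 536 and 367 bp. In the 267 members with a single match, its centre lay a median of 90.5 bp (70.5 to 100) from the centre of the peak. About as many of the 288 CTCF matches in members lay in coding bases (147, 51.0%) as outside them, although 64.8% of the bases were coding. For SP1 the coding share was 33.6% of 277 matches and for the E-box 70.2% of 325.

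Coding sequence was then compared with coding sequence, inside and outside peaks of any kind, beyond 1000 bp of a TSS. CTCF matches numbered 207 per Mb inside peaks and 35.0 outside, a ratio of 5.91 (5.12 to 6.81, exact conditional binomial test, adjusted p = 1.50e-95), and 3.82 (3.30 to 4.42, adjusted p = 1.96e-82) within steps of local GC content. Exact matches alone, 47 inside and 39 outside, gave a ratio of 23.3 (14.9 to 36.7, exact conditional binomial test, adjusted p = 4.03e-38). Of the 1091 CTCF matches in distal coding sequence, 23.4% lay inside a listed peak, compared with 21.0% of those in introns, while peaks covered 4.91% and 1.59% of the bases. KLF and ESRRB matches were denser inside peaks with and without GC steps, with ratios of 2.05 (1.68 to 2.51, chi-square test, adjusted p = 6.32e-12) and 2.23 (1.62 to 3.06, adjusted p = 1.67e-06) within them. For the E-box the ratio within steps was 1.30 (1.15 to 1.47, chi-square test, adjusted p = 5.47e-05). SP1 dropped from 5.00 (exact conditional binomial test, adjusted p = 6.76e-48) to 1.22 (1.00 to 1.49, adjusted p = 0.0955).

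SOX matches were rarer inside coding peaks without the steps (0.822, 0.710 to 0.946, exact binomial test, adjusted p = 0.00753) and more frequent within them (1.31, 1.14 to 1.52, adjusted p = 0.000486). For OCT matches the ratio rose from 0.313 (0.161 to 0.550, exact binomial test, adjusted p = 4.59e-06) to one that did not pass within the steps (0.811, 0.461 to 1.43, adjusted p = 0.560). The 6 OCT4::SOX2 matches inside peaks and 157 outside gave ratios of 0.740 (0.268 to 1.65, exact binomial test, adjusted p = 0.587) and, within steps, 2.22 (0.960 to 5.11, adjusted p = 0.0955, approximate at such counts). The comparisons within steps of local GC content were added after the data had been seen.

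**Figure D5:**
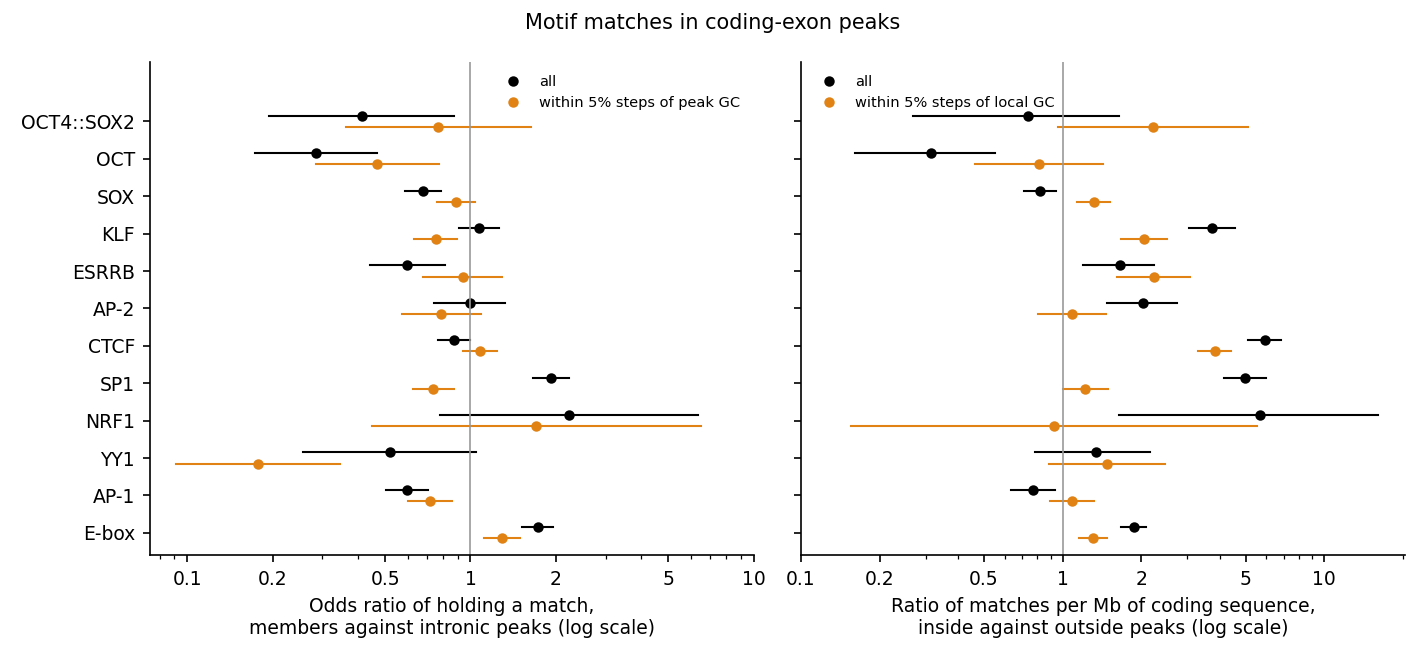
Left, odds ratio that a member holds a motif match against distal intronic peaks; right, ratio of matches per Mb of distal coding sequence inside against outside peaks; points with 95% intervals on logarithmic axes, in black without and in orange within 5% steps of GC content. CTCF keeps a ratio of 3.82 on the right within GC steps, whereas SP1 moves from 5.00 to 1.22.

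The strand of CTCF matches did not pass a test. Inside peaks 40.9% (35.1 to 47.1) of 254 coding matches with an unambiguous strand ran along the gene, and outside peaks 45.7% (42.3 to 49.1) of 836 did (odds ratio 0.824, 0.620 to 1.10, Fisher's exact test, p = 0.195). Matches did not use the reading frame evenly, inside or outside peaks. Along the gene, the first base of a match on the gene's strand was the third base of a codon in 56.3% of 87 matches inside peaks and 47.4% of 327 outside, and on the opposite strand in 48.9% of 137 and 49.9% of 423.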

How the data were processed

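The authors aligned paired reads to GRCm38 with STAR 2.6.1c, removed duplicates with Picard, called peaks with MACS2 2.1.1.20160309 and merged peaks over the dox-treated libraries using BEDTools. What they deposited holds 3 columns (chromosome, start, end), so its unit is a coordinate. The study describes removing peaks over 5 kb, yet the list holds such peaks (the widest intronic one spans 10842 bp), none of them a member. Its filters on input peaks and blacklisted regions could not be checked. Members and lists were chosen with earlier results of these data known.

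TSS were all 132629 transcript starts of GENCODE M21. A centre base was assigned to coding sequence, then other exons, introns and intergenic sequence. The principal transcript was chosen by APPRIS, CCDS and coding length. Rates were compared by exact conditional binomial tests and shares by two-sided Fisher's exact tests, stratified values by Mantel-Haenszel chi-square tests, with Benjamini-Hochberg adjustment over the 12 motifs. Intervals cover 95% (exact, Wilson, Woolf or order statistics). Genes named in the text are the 10 with most members, the 5 widest members, hosts on 4 gene lists (at most 5 per list), members with OCT4::SOX2 matches (6), exact CTCF matches nearest the centre (6), the 8 widest members fitting an exon, and those nearest the TSS limit. Other named genes were chosen after their values were seen. The tests were checked on simulated data. Python 3.11.15, numpy 2.4.6 and scipy 1.17.1 were used.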

Additional observations from a re-analysis of the deposited data

How the results depend on the processing

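Of 128 alternatives to 41 results, 101 were scored as unchanged. For tests this meant the same direction and call, and for the number of members a count of similar size. The 101 include the density against introns with each gene counted once, described below. They also include OCT4::SOX2 inside against outside peaks with 1 mismatch fewer, where 0 matches lay inside. No paired analysis was possible because a file of coordinates carries no value per replicate, and for the same reason the planned comparison of MD-OCT4 with MD*-OCT4 and its leave-one-out fits were not run. Keeping peaks of at least 300 bp left 1458 members. Stratifying on local GC content took the density ratio against introns to 1.04. For first against internal coding exons it gave a ratio of 0.826, and exon length gave 1.16. In the central 200 bp the odds ratios of OCT4::SOX2, CTCF and KLF against intronic peaks were 0.432 (call lost), 0.645 (call gained) and 0.812, SP1 lost its call (1.26) and AP-2 gained one (0.506). With 1 mismatch fewer CTCF gained the call (0.720). Stratifying on peak GC content gave 0.770 for OCT4::SOX2, 1.08 for CTCF, 0.754 for KLF and 0.739 for SP1. Peaks of at least 300 bp gave 1.04 for AP-2. Inside against outside peaks, stratifying on local GC gave ratios of 2.22 for OCT4::SOX2, 1.31 for SOX, 0.928 for NRF1 and 1.08 for AP-1, and AP-2 lost its call (1.08). The central 200 bp gave 1.13 for SOX, and AP-1 lost its call (0.945). The local GC and exon length alternatives were chosen after seeing the data, and the cause of the other changes was not tested. Counting each gene once, over the same bases, gave 2025 genes with members and 10479 with intronic peaks, a ratio of 7.80. This step shrinks the 36825 intronic peaks far more than the 2362 members. The value is therefore no ratio of peak densities and says nothing on the density excess over introns. Exact CTCF matches took the inside to outside ratio from 5.91 to 23.3. The unknown depth sets which peaks could be called, and a peak of any single dox-treated library counts like a peak of all 16.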
